A study of Mus musculus with 24 samples.

Results

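The genes described here encode guidance cues and their receptors in mouse liver: semaphorins of classes 3 to 7, plexins, neuropilins, ephrins, Eph receptors, Slit and Robo proteins, netrins and Unc5 receptors. They were chosen by gene name alone, which gave 67 of the 18314 entries of the long RNA table. Of these, 54 passed the filter on low counts and were among the 13832 entries tested, and 13 did not pass. A gene with few reads in the other groups could pass through HFD livers alone, and such a gene had to differ, so counts over the 54 are not counts over the whole set. Unc50 and Unc5cl matched by name only and are no netrin receptors.

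Guidance cues are secreted or membrane-bound proteins that steer growing axons, vessels and migrating cells by attraction or repulsion. Semaphorins bind plexins, in most class 3 cases with a neuropilin as co-receptor. Ephrins bind Eph receptor tyrosine kinases on a neighbouring cell, Slits bind Robo receptors, and netrins bind Unc5 receptors or Dcc. Many of the receptors act on the cytoskeleton. In liver, members are known from sinusoidal endothelium, hepatocytes, stellate cells and immune cells.

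The study asked how a herbal preparation acts on fatty liver. All mice were male C57BL/6 of wild-type genotype (WT), and in each group long and small RNA were read from the livers of 4 mice. HFD plus HQHF mice ate a high-fat diet (HFD) and were given HQHF, the Huatanqushihuoxue Formula, by gavage once 12 weeks of the diet had passed. HFD mice ate the same kind of diet without HQHF, and control mice ate a normal diet. The study kept 9 mice per group at more than 1 dose of HQHF, and the labels do not say which dose these livers received. Age is not given in the sources used here. Each mouse carried its own batch code, so no batch could be compared within or across groups.

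Values are CPM, counts of a gene scaled by a library's reads and TMM factor, listed by replicate number: HFD plus HQHF 1, 2 and 4 (n = 3), HFD 1 to 4 (n = 4) and control 1, 3 and 4 (n = 3). HFD plus HQHF 3 and control 2 were left out because Alb, the albumin gene of hepatocytes, stood at 0.743 and 46.4 CPM of library total there, against at least 35054 CPM in the other 10. Totals of the 10 libraries ran from 36198931 to 46454404 reads. Control 1 also held pancreatic acinar markers (summed 1944 CPM, against 6.25 and 7.43 CPM in the other controls), and HFD 3 held adipocyte markers (227 CPM, against 10.4 to 83.2 CPM in the other HFD livers). Calls are at an adjusted p under 0.05 from edgeR's quasi-likelihood test with Benjamini-Hochberg adjustment over the 13832 entries, and changes are log2 fold changes ± SE, where "with HFD" means HFD against control and "with HQHF" means HFD plus HQHF against HFD. HFD against control and HFD plus HQHF against HFD use the same 4 HFD libraries, so they are not independent. In bulk liver RNA, fewer cells of a type and less RNA per cell cannot be told apart.

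A pair of members host a miRNA, so the small RNA libraries gave a further readout of these loci. The hairpin of miR-218-1 lies within the span of Slit2 and that of miR-218-2 within the span of Slit3. RefSeq (GRCm38.p6) places the hairpins at chr5:48223942-48224051 and chr11:35616816-35616925, both on the plus strand. Both give the same 5p arm, while their 3p arms differ, so a read of the 5p arm does not tell which locus it came from. In the mature sequences the capitals mark the seed, bases 2 to 8, and the 3 seeds differ.
miR-218-5p, from both loci: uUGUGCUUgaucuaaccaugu
miR-218-1-3p, from the Slit2 locus: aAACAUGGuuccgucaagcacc
miR-218-2-3p, from the Slit3 locus: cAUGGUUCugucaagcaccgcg
In the hairpins of 110 bases the capitals mark both mature arms.
miR-218-1 hairpin: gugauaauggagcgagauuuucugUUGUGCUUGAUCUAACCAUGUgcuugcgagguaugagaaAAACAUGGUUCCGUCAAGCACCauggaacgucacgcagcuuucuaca
miR-218-2 hairpin: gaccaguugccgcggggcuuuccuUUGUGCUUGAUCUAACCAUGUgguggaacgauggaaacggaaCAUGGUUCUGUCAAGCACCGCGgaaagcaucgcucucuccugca

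The promoters of Slit2, Slit3 and Sema4d are shown because all 3 genes rose with HFD and fell with HQHF. RefSeq (GRCm38.p6) promoter windows run from 250 bases before to 50 after a start site. The windows are chr5:47982905-47983204 (plus strand) for Slit2, chr11:35121206-35121505 (plus strand) for Slit3 and chr13:51739397-51739696 (minus strand) for 1 of 3 Sema4d start sites, the most downstream of them. The windows of the other 2 Sema4d start sites hold neither motif marked here. Capitals mark the GC box, GGGCGG or its reverse complement CCGCCC, and the TATA box, TATAAA. A pair of GC boxes overlaps in Slit3.
Slit2: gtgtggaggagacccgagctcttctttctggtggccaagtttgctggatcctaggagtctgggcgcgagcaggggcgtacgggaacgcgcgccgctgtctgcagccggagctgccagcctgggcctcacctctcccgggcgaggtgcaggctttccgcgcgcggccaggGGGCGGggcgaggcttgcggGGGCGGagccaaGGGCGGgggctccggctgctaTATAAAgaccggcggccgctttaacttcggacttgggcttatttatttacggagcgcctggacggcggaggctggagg
Slit3: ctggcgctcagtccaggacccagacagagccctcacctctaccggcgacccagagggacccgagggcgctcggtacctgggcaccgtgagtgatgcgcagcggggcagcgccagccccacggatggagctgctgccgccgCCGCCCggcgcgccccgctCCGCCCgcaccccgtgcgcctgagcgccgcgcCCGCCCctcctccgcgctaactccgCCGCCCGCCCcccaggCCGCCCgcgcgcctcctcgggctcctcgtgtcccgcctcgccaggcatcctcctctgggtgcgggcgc
Sema4d: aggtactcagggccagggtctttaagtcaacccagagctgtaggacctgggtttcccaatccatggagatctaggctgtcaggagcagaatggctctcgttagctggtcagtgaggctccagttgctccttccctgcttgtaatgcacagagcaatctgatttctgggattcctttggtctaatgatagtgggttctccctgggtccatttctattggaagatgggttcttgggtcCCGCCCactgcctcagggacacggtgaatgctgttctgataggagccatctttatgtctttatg
Promoter windows were at hand for 21 of the 25 genes that rose with HFD, 27 windows in all. A GC box stood in 19 of the 27 (70.4%), against 35.6% of 32817 promoter windows, and TATAAA in 2 (7.41%), against 13.6%. The AP-1 motif TGACTCA was in 2 windows (7.41%, against 5.2%) and the PU.1 motif GAGGAAGT in 0 (against 3.2%), on either strand. Some genes gave more than 1 window. Guidance genes that did not rise were not counted apart, so these shares cannot be tied to the rise with HFD. Such matches describe letters in a window and no binding.

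In livers of HFD mice 25 of the 54 guidance genes tested rose against control (46.3%). Over all genes tested, 16.3% rose and 9.89% fell. None of the 54 fell, by edgeR at the adjusted or at an unadjusted p under 0.05 (30 higher and 0 lower, where 40.9% of all genes passed in either direction) or by DESeq2 (28 higher and 0 lower). DESeq2 called 34.2% of all genes in either direction. The 25 were Sema3a, Sema3b, Sema3c, Sema3g, Sema4c, Sema4d, Sema5a, Sema6b and Sema7a, Plxna1, Plxna3, Plxna4 and Plxnd1, Efnb2, Epha3, Epha4, Ephb2, Ephb3 and Ephb6, Slit2, Slit3 and Robo2, and Ntn1, Unc5a and Unc5b. Each of the 25 was higher in every HFD liver than in every control liver, and 27 of the 54 did not overlap in that direction (50%), against 20.8% of all genes. At least 2-fold differences were fitted for 21 of the 25. The median log2 fold change was 0.83 over the 54 and 0.06 over all genes. Control means of Sema3a, Sema3g, Sema7a, Slit2 and Slit3 lay under the 0.227 CPM that stands for 10 reads in the median library. By library totals, Sema3g, Sema7a and Slit2 reached that level in too few other livers to pass the filter without the HFD livers. The same held for Efna2 and Slit1, which were not called. Their higher HFD levels, here and below, thus follow in part from the filter. Without the filter, 23 of 67 guidance genes were called (34.3%, against 17.4% of all genes). Without control 1 the count was 8 of 56 (14.3%, against 11% of all genes called in either direction), without control 3 it was 9 of 56 (16.1%, against 12.3%) and without control 4 it was 16 of 56 (28.6%, against 14.6%). Without control 1 or control 3 the share was thus near that of all genes called in either direction. All guidance genes called in these fits were higher. Over all genes, 951 of 14227 were higher without control 1 and 862 of 14259 without control 3. Over the other libraries left out in turn the count ran from 19 to 26, or 35.8 to 50%, against 18.7 to 28.5% of all genes. With all 12 libraries 1 of 55 guidance genes was called, Sema4d (1.82%, against 0.0503% of all genes). TMM factors ran from 1.20 to 1.42 in HFD libraries and from 0.763 to 0.939 in the others. Scaled by library totals instead, the median over all genes was 0.66 with HFD, 7041 genes rose and 154 fell, 45 guidance genes rose and their median was 1.44.

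In livers of HFD plus HQHF mice 16 of the 54 fell against HFD (29.6%) and 1, Plxnc1, rose (1.85%). Over all genes tested, 11.1% fell and 7.85% rose. Of the 16, 15 were among the genes higher with HFD, and the sixteenth was Plxna2. HFD plus HQHF lay wholly under HFD for 23 of the 54 (42.6%), against 17.2% of all genes, and 15 of the 17 called genes did not overlap. The median log2 fold change was -0.76 over the 54 and -0.07 over all genes. Called in either direction were 3 of 56 without HFD plus HQHF 1 (5.36%, against 4.44% of all genes), 6 without HFD plus HQHF 2 (10.7%, against 5.63%) and 8 without HFD plus HQHF 4 (14.3%, against 12%). Without HFD plus HQHF 1 or 4 the share was thus near that of all genes called in either direction. All guidance genes called in these fits were lower. Over all genes, 352 of 14254 were lower without HFD plus HQHF 1 and 858 of 14247 without HFD plus HQHF 4. With all 12 libraries 0 of 55 guidance genes were called (0%, against 0.00718% of all genes). At an unadjusted p under 0.05, 28 were lower and 3 higher, where 36.1% of all genes passed in either direction. DESeq2 called 25 lower and 3 higher, where 28.1% of all genes were called in either direction. Those it called lower and edgeR did not included Robo1, Sema7a, Ephb3, Sema4c, Epha3, Unc5a and Ntn1 (DESeq2, adjusted p from 0.0147 to 0.0475). Nrp1 and Unc50 were called higher by DESeq2 and not by edgeR (0.0111 and 0.0137). Scaled by library totals, the median over all genes was -0.62, 137 genes rose and 6496 fell, 39 guidance genes fell and their median was -1.30. Guidance genes took 0.0896, 0.0954 and 0.108% of all reads in HFD plus HQHF livers, 0.153, 0.165, 0.142 and 0.180% in HFD livers and 0.0826, 0.102 and 0.0926% in control livers. By this share every HFD liver lay above the other 6. It was taken from library totals without TMM factors, where the median over all genes also rose with HFD and fell with HQHF. The share is thus no separate support.

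Markers of other cells moved with these counts. The monocyte and macrophage list summed to 18.1 to 24.5 CPM in HFD plus HQHF livers, 108 to 292 CPM in HFD livers and 14.8 to 19.4 CPM in control livers, with 8 of 8 markers higher with HFD and 7 lower with HQHF. The stellate cell and fibroblast list summed to 333 to 449 CPM in HFD plus HQHF livers, 437 to 1318 CPM in HFD livers and 313 to 398 CPM in control livers, with 8 of 10 markers higher and 8 lower. Cholangiocyte markers stood at 30.1 to 41.0 CPM in HFD plus HQHF livers, 28.5 to 404 CPM in HFD livers and 40.8 to 42.1 CPM in control livers, with 1 of 7 higher with HFD (5 at an unadjusted p under 0.05 and 5 by DESeq2) and 1 lower with HQHF (6 unadjusted and 5 by DESeq2), and HFD 4 had the 404. Nerve and Schwann cell markers summed to 0.431 to 0.574 CPM in HFD plus HQHF livers, 0.774 to 3.23 CPM in HFD livers and 0.384 to 0.735 CPM in control livers, and neither of the 2 tested was called (0 and 1 at an unadjusted p under 0.05 in the 2 comparisons, 0 by DESeq2). Endothelial markers summed to 459 to 659 CPM in HFD plus HQHF livers, 396 to 556 CPM in HFD livers and 442 to 549 CPM in control livers, with 0 of 10 called in either comparison by edgeR (0 and 3 at an unadjusted p under 0.05, and 0 and 2 by DESeq2). Hepatocyte markers summed to 82231 to 116011 CPM in HFD plus HQHF livers, 39349 to 81964 CPM in HFD livers and 104931 to 139200 CPM in control livers, with 2 of 8 lower with HFD (6 at an unadjusted p under 0.05 and 6 by DESeq2) and 1 higher with HQHF (2 and 2). Kupffer cell markers summed to 358 to 563 CPM in HFD plus HQHF livers, 307 to 504 CPM in HFD livers and 309 to 393 CPM in control livers, with 2 of 8 higher and 2 lower with HFD and 2 higher with HQHF. Neutrophil markers summed to 3.69 to 5.83 CPM in HFD plus HQHF livers, 5.88 to 16.7 CPM in HFD livers and 2.90 to 3.13 CPM in control livers, with 5 of 5 tested higher with HFD and 0 called with HQHF (4 lower at an unadjusted p under 0.05, 1 by DESeq2). T and NK cell markers summed to 57.8 to 184 CPM in HFD plus HQHF livers, 58.4 to 79.4 CPM in HFD livers and 42.4 to 139.95 CPM in control livers, with 2 of 8 higher with HFD and 0 called with HQHF (2 lower unadjusted, 1 by DESeq2). B and plasma cell markers summed to 4.34 to 9.56 CPM in HFD plus HQHF livers, 3.47 to 10.7 CPM in HFD livers and 4.09 to 4.70 CPM in control livers, with 0 of 6 called in either comparison, unadjusted or by DESeq2. Adipocyte markers, of which 2 were tested, gave 0 calls in the same 3 ways, and the 1 acinar marker tested was lower with HFD by edgeR but not called by DESeq2, with the acinar signal of the controls almost wholly in control 1. Each marker of these lists had a read in at least 1 of the 10 libraries. The part of other cells in the changes of guidance genes was not tested.

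**Figure D1:**
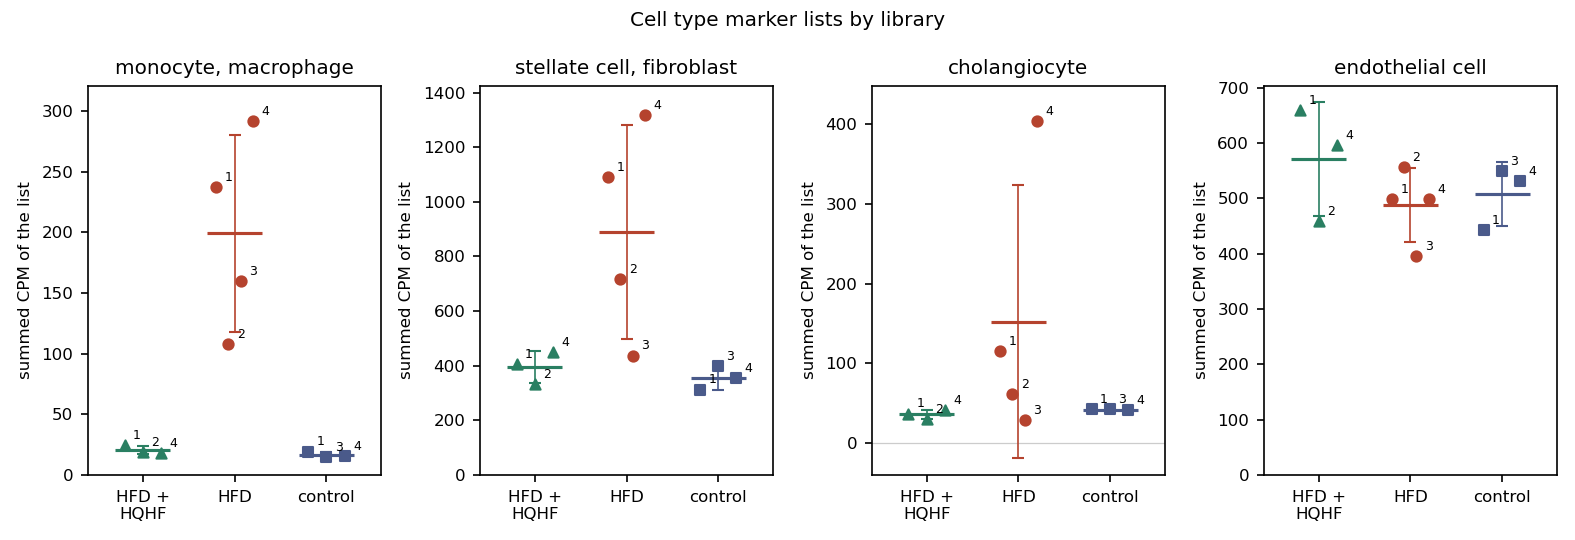
Summed CPM of 4 marker lists (vertical axes, linear) in HFD plus HQHF, HFD and control livers (horizontal axes). Points are libraries labelled by replicate number, bars are means and whiskers SD. Monocyte and macrophage markers lie at 108 to 292 CPM in HFD livers and at 14.8 to 24.5 CPM elsewhere, while endothelial markers overlap between the 3 groups.

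**Figure D2:**
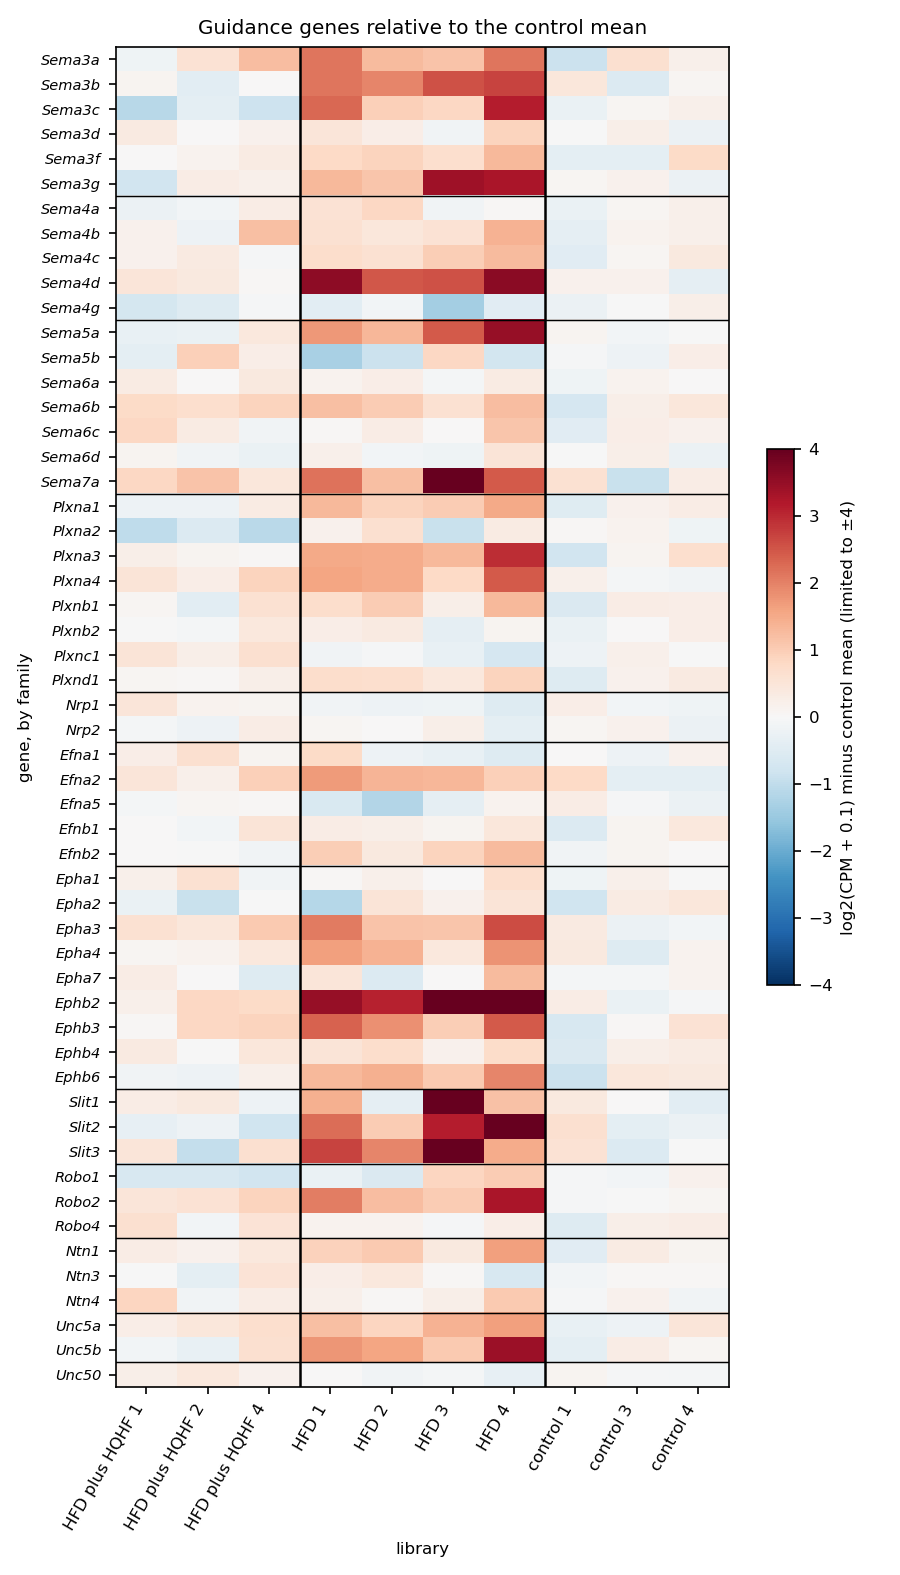
Each row is 1 of the 54 guidance genes tested, grouped by family, and each column 1 of 10 libraries. Colour is log2(CPM + 0.1) minus the control mean, limited to 4 in either direction, with red higher and blue lower. Red is most frequent in the 4 HFD columns, with Ephb2 and Sema4d red in all 4, while rows such as Plxnb2 and Nrp2 stay pale across.

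Sema4d (ENSMUSG00000021451), a membrane semaphorin of lymphocytes and other immune cells that binds plexin-B1, plexin-B2 and Cd72, held its call in more settings than any other named member. It had 2.38, 2.22 and 1.73 CPM in HFD plus HQHF livers, 21.3, 9.78, 10.3 and 21.8 CPM in HFD livers and 1.92, 1.896 and 1.301 CPM in control livers. The 4 HFD livers lay well above both other groups, which overlapped each other. Its log2 fold change was 3.21 ± 0.35 (adjusted p = 0.000932) for HFD against control and -2.90 ± 0.35 (adjusted p = 0.00207) for HFD plus HQHF against HFD. The HFD against control call was the one that held in each of 20 other settings, while the HQHF call held in 19, all but the fit with 12 libraries. Neither of its class B plexin receptors was called by edgeR on the 10 libraries with TMM scaling, but each was called in some other setting. Plxnb1 (ENSMUSG00000053646) had 37.6, 26.3 and 53.8 CPM in HFD plus HQHF livers, 57.6, 71.9, 41.9 and 87.6 CPM in HFD livers and 23.8, 43.7 and 42.1 CPM in control livers. The groups overlapped, with 3 HFD livers above the other 6 and HFD 3 among them. Neither 0.82 ± 0.32 (adjusted p = 0.0744) for HFD against control nor -0.72 ± 0.31 (adjusted p = 0.124) for HFD plus HQHF against HFD passed the threshold. DESeq2 called the HFD change of Plxnb1 (0.79, adjusted p = 0.0452). By edgeR with each library left out in turn, its adjusted p ran from 0.0344 to 0.236. Plxnb2 (ENSMUSG00000036606), a receptor of Sema4c and Sema4g as well, had 249, 235 and 337 CPM in HFD plus HQHF livers, 298, 322, 196 and 267 CPM in HFD livers and 208, 251 and 299 CPM in control livers. All 3 groups overlapped, with changes of 0.10 ± 0.22 (adjusted p = 0.765) for HFD against control and 0.01 ± 0.22 (adjusted p = 0.97) for HFD plus HQHF against HFD. Under scaling by library totals the second was -0.52 and was called (edgeR, adjusted p = 0.0468).

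**Figure D3:**
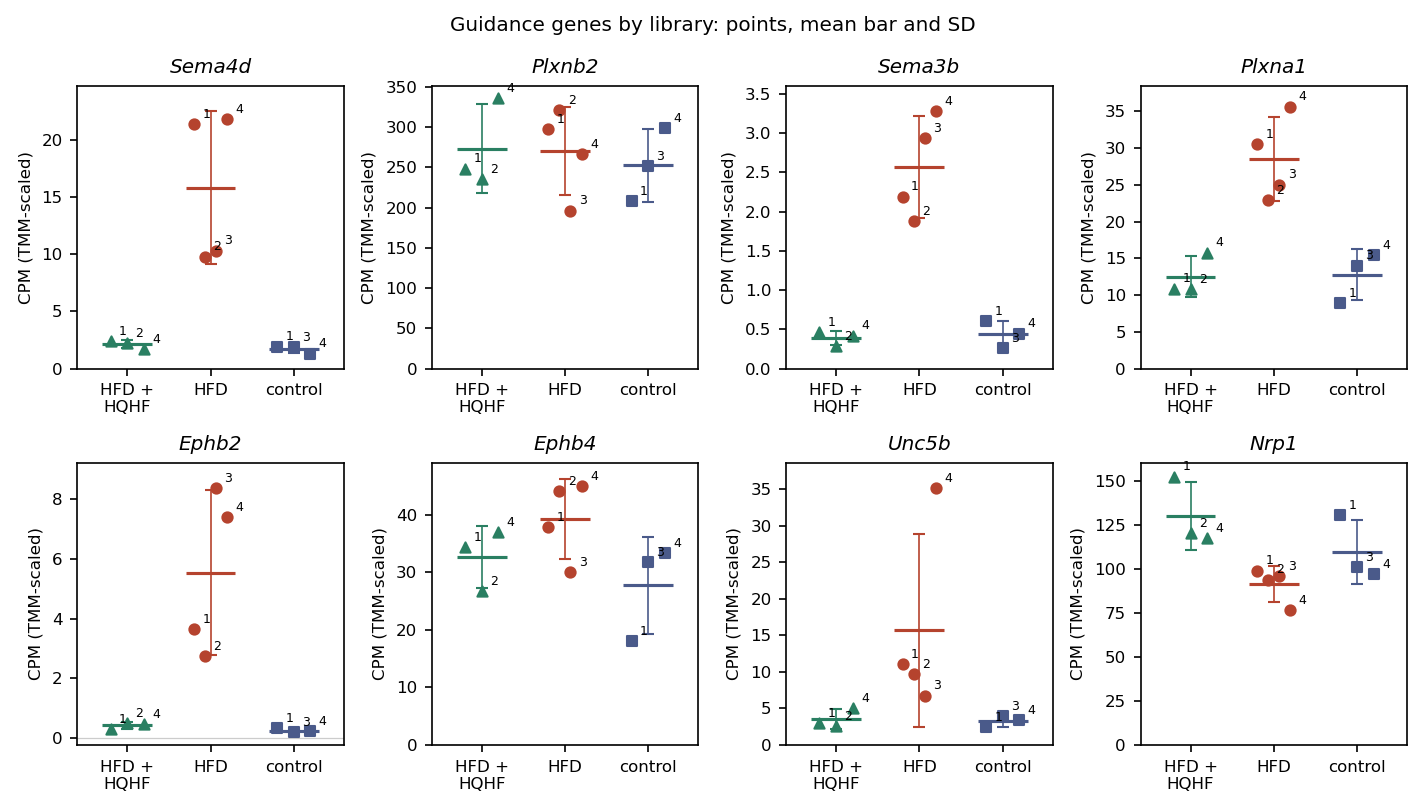
CPM (vertical axes, linear, from 0) of 8 guidance genes in HFD plus HQHF, HFD and control livers. Points are libraries labelled by replicate number, bars are means and whiskers SD. For Sema4d, Sema3b, Plxna1, Ephb2 and Unc5b every HFD point lies above the other 2 groups, and for Plxnb2 and Ephb4 the groups overlap.

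Class 3 semaphorins are secreted and signal mostly through a neuropilin and a class A plexin. Of 6 tested, 4 rose with HFD and 3 of these fell with HQHF. Sema3b (ENSMUSG00000057969), a repellent also known as a tumour suppressor, had 0.459, 0.287 and 0.418 CPM in HFD plus HQHF livers, 2.19, 1.88, 2.94 and 3.28 CPM in HFD livers and 0.604, 0.256 and 0.444 CPM in control livers. The HFD livers stood apart from the other 2 groups without overlap. It changed by 2.56 ± 0.39 (adjusted p = 0.00328) with HFD and -2.72 ± 0.39 (adjusted p = 0.00382) with HQHF. Sema3c (ENSMUSG00000028780), a cue of heart and vessel development, had 0.258, 0.496 and 0.3399 CPM in HFD plus HQHF livers, 3.76, 1.397, 1.27 and 6.84 CPM in HFD livers and 0.552, 0.718 and 0.793 CPM in control livers. HFD 1 and HFD 4 were high, and every HFD liver exceeded the rest. It changed by 2.27 ± 0.59 (adjusted p = 0.0203) with HFD and -3.17 ± 0.63 (adjusted p = 0.0108) with HQHF. Sema3g (ENSMUSG00000021904), an endothelial cue, had 0.0574, 0.235 and 0.209 CPM in HFD plus HQHF livers, 0.566, 0.478, 2.71 and 2.51 CPM in HFD livers and 0.184, 0.205 and 0.127 CPM in control livers. HFD 3 and HFD 4 carried most of the rise, and HFD 1 and HFD 2 still lay above all others. It changed by 3.15 ± 0.76 (adjusted p = 0.0154) with HFD and -3.19 ± 0.76 (adjusted p = 0.0193) with HQHF.

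The Sema3b calls held with each of the 10 libraries left out in turn. Those of Sema3c and Sema3g with HFD were lost without control 1, control 3 or control 4, with adjusted p up to 0.0778 for Sema3c and 0.0594 for Sema3g, and the HQHF calls without HFD plus HQHF 1 for Sema3c (0.0542) and without HFD plus HQHF 1, 2 or 4 for Sema3g (up to 0.0782). Sema3a, the best known axon repellent of the class, averaged 0.335 ± 0.204 CPM in HFD plus HQHF livers, 0.828 ± 0.333 CPM in HFD livers and 0.203 ± 0.141 CPM in control livers (SD). It rose by 2.02 ± 0.65 (adjusted p = 0.0424) with HFD, but with HQHF its -1.29 ± 0.62 (adjusted p = 0.157) did not pass. Sema3f, which acts through neuropilin-2, averaged 4.58 ± 0.519 CPM in HFD plus HQHF livers, 7.83 ± 1.53 CPM in HFD livers and 4.398 ± 2.29 CPM in control livers, with 0.84 ± 0.30 (adjusted p = 0.0595) for HFD against control. Its HFD and control livers overlapped through control 4 at 7.05 CPM. Sema3d overlapped in all groups, with 0.42 ± 0.25 (adjusted p = 0.237).

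Among class 4 semaphorins, membrane proteins, 2 of 5 rose with HFD, Sema4d and Sema4c. Sema4c (ENSMUSG00000026121), a ligand of plexin-B2, had 3.76, 4.28 and 3.22 CPM in HFD plus HQHF livers, 5.44, 5.15, 6.68 and 8.11 CPM in HFD livers and 2.39, 3.51 and 4.41 CPM in control livers. The HFD livers lay above both other groups without overlap. It rose by 0.89 ± 0.25 (adjusted p = 0.0273) with HFD, a call lost without HFD 4, control 1 or control 3 (adjusted p up to 0.0985), and HQHF gave -0.76 ± 0.25 (adjusted p = 0.0552). Sema4a, which acts on T cells, Sema4b and Sema4g did not pass in either comparison. Sema4b was not called at 0.79 ± 0.35 (adjusted p = 0.113), although its HFD livers lay above the control livers, and Sema4g had the lowest change of the 54, -0.53 ± 0.27 (adjusted p = 0.166).

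Of 7 class 5 to 7 semaphorins, 3 rose with HFD. Sema5a (ENSMUSG00000022231), a transmembrane semaphorin with thrombospondin repeats, had 1.005, 1.02 and 1.73 CPM in HFD plus HQHF livers, 4.35, 3.25, 7.35 and 14.96 CPM in HFD livers and 1.37, 1.15 and 1.24 CPM in control livers. HFD 4 was highest, and the other HFD livers were also above the rest. It changed by 2.58 ± 0.50 (adjusted p = 0.0074) with HFD, in each fit with 1 library left out, and by -2.58 ± 0.50 (adjusted p = 0.0106) with HQHF, a call lost without HFD plus HQHF 1 (adjusted p = 0.0532). Sema7a (ENSMUSG00000038264), a GPI-anchored semaphorin of immune cells that binds plexin-C1 and integrins, had 0.2297, 0.313 and 0.157 CPM in HFD plus HQHF livers, 0.731, 0.331, 4.19 and 0.928 CPM in HFD livers and 0.184, 0 and 0.127 CPM in control livers. HFD 3 stood far above the rest. HFD 2 lay barely above HFD plus HQHF 2. Its rise of 3.88 ± 1.06 (adjusted p = 0.0246) was lost without control 1, control 3 or control 4 (adjusted p up to 0.0737), and HQHF gave -2.71 ± 0.96 (adjusted p = 0.0693). Without HFD 3 the HQHF change was -1.50, and DESeq2 with all 10 libraries called it at -2.69 (adjusted p = 0.0149). Sema6b (ENSMUSG00000001227), a ligand of class A plexins, had 4.11, 3.83 and 4.55 CPM in HFD plus HQHF livers, 5.63, 4.91, 3.705 and 5.72 CPM in HFD livers and 1.44, 2.82 and 3.300 CPM in control livers. Both high-fat groups lay above the control group and overlapped each other. It rose by 0.99 ± 0.28 (adjusted p = 0.0281) with HFD, lost without HFD 1, HFD 4, control 1 or control 3 (up to 0.0808), and HQHF gave -0.26 ± 0.27 (adjusted p = 0.524). Sema5b, Sema6a, Sema6c and Sema6d overlapped in every comparison, with log2 fold changes of -0.29 to 0.47 for HFD against control.

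Plexins are the semaphorin receptors, with a GTPase-activating domain inside the cell. With HFD 4 of 8 tested rose, Plxna1, Plxna3, Plxna4 and Plxnd1, and with HQHF 4 fell and 1 rose. Plxna1 (ENSMUSG00000030084), a receptor for class 3 and class 6 semaphorins, had 10.9, 10.9 and 15.8 CPM in HFD plus HQHF livers, 30.5, 22.96, 25.01 and 35.6 CPM in HFD livers and 8.88, 14.02 and 15.4 CPM in control livers. The HFD livers lay above the other groups, which overlapped closely. It changed by 1.16 ± 0.23 (adjusted p = 0.00808) with HFD and -1.19 ± 0.23 (adjusted p = 0.0106) with HQHF. Plxna3 (ENSMUSG00000031398), a receptor of Sema3f with neuropilin-2, had 0.517, 0.469 and 0.445 CPM in HFD plus HQHF livers, 1.39, 1.36, 1.196 and 3.99 CPM in HFD livers and 0.2101, 0.461 and 0.7299 CPM in control livers. HFD 4 was far above the other HFD livers, and these were above the rest. It changed by 2.09 ± 0.55 (adjusted p = 0.0206) with HFD and -2.05 ± 0.55 (adjusted p = 0.028) with HQHF. Plxna4 (ENSMUSG00000029765), a receptor of Sema3a and class 6 semaphorins, had 8.59, 7.22 and 11.3 CPM in HFD plus HQHF livers, 18.2, 16.9, 10.5 and 33.2 CPM in HFD livers and 6.93, 5.74 and 5.43 CPM in control livers. HFD 3 lay within the HFD plus HQHF range, and each HFD liver was above the control livers. It changed by 1.71 ± 0.34 (adjusted p = 0.00808) with HFD and -1.12 ± 0.33 (adjusted p = 0.0403) with HQHF.

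The Plxna1 and Plxna4 calls with HFD held with each library left out. Plxna1 lost its HQHF call without HFD plus HQHF 1 (adjusted p = 0.0543) or 2 (0.0501). Plxna3 lost its HFD call without control 1 or control 3 (up to 0.0767) and its HQHF call without HFD plus HQHF 1, 2 or 4 or HFD 4 (up to 0.0956). The HQHF call of Plxna4 was lost without any 1 of 8 libraries, all but HFD 2 and HFD 3 (up to 0.141). Plxnd1, the endothelial receptor of Sema3e, averaged 34.6 ± 2.65 CPM in HFD plus HQHF livers, 51.00 ± 6.91 CPM in HFD livers and 32.8 ± 9.61 CPM in control livers. It rose by 0.64 ± 0.20 (adjusted p = 0.0386) with HFD, and HQHF gave -0.56 ± 0.20 (adjusted p = 0.068).

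A pair of plexins was called with HQHF and not with HFD, and the difference between the 2 comparisons was not tested. Plxna2 (ENSMUSG00000026640), a receptor for class 3 and class 6 semaphorins, had 22.02, 30.5 and 21.1 CPM in HFD plus HQHF livers, 50.6, 69.9, 23.99 and 56.7 CPM in HFD livers and 45.9, 49.1 and 39.7 CPM in control livers. HFD 3 lay within the HFD plus HQHF range, and the control livers lay within the HFD range. It fell by 1.03 ± 0.30 with HQHF (adjusted p = 0.0379), while HFD against control gave 0.16 ± 0.29 (adjusted p = 0.712). That call was lost without any 1 of 9 libraries, all but HFD 3 (adjusted p up to 0.128). Plxnc1 (ENSMUSG00000074785), the receptor of Sema7a, had 50.5, 41.9 and 55.9 CPM in HFD plus HQHF livers, 32.1, 34.3, 28.9 and 22.5 CPM in HFD livers and 31.1, 40.7 and 35.5 CPM in control livers. Every HFD plus HQHF liver lay above every HFD and every control liver. It rose by 0.75 ± 0.17 (adjusted p = 0.0164) with HQHF and had -0.28 ± 0.17 (adjusted p = 0.24) for HFD against control, and the call was lost without HFD plus HQHF 1 (0.0644) or 4 (0.0502) and under scaling by library totals.

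Neuropilins, co-receptors of class 3 semaphorins and of VEGF, were not called by edgeR on the 10 libraries with TMM scaling. Nrp1 (ENSMUSG00000025810) had 153, 120.3 and 117 CPM in HFD plus HQHF livers, 99.1, 93.99, 95.99 and 76.5 CPM in HFD livers and 130.4, 101 and 97.01 CPM in control livers. All HFD plus HQHF livers lay above all HFD livers, yet 0.51 ± 0.17 (adjusted p = 0.0525) missed the threshold. DESeq2 called it (0.55, adjusted p = 0.0111), as did edgeR without control 1 (adjusted p = 0.0479), and HFD against control gave -0.26 ± 0.17 (adjusted p = 0.26). Nrp2 (ENSMUSG00000025969) had 32.6, 29.4 and 41.9 CPM in HFD plus HQHF livers, 36.00, 34.3, 40.4 and 26.1 CPM in HFD livers and 35.8, 37.98 and 28.97 CPM in control livers. The groups overlapped fully, with 0.00 ± 0.18 (adjusted p = 0.993) for HFD against control and 0.02 ± 0.18 (adjusted p = 0.956) for HFD plus HQHF against HFD. Under scaling by library totals the first was 0.59 and was called (edgeR, adjusted p = 0.0358).

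**Figure D4:**
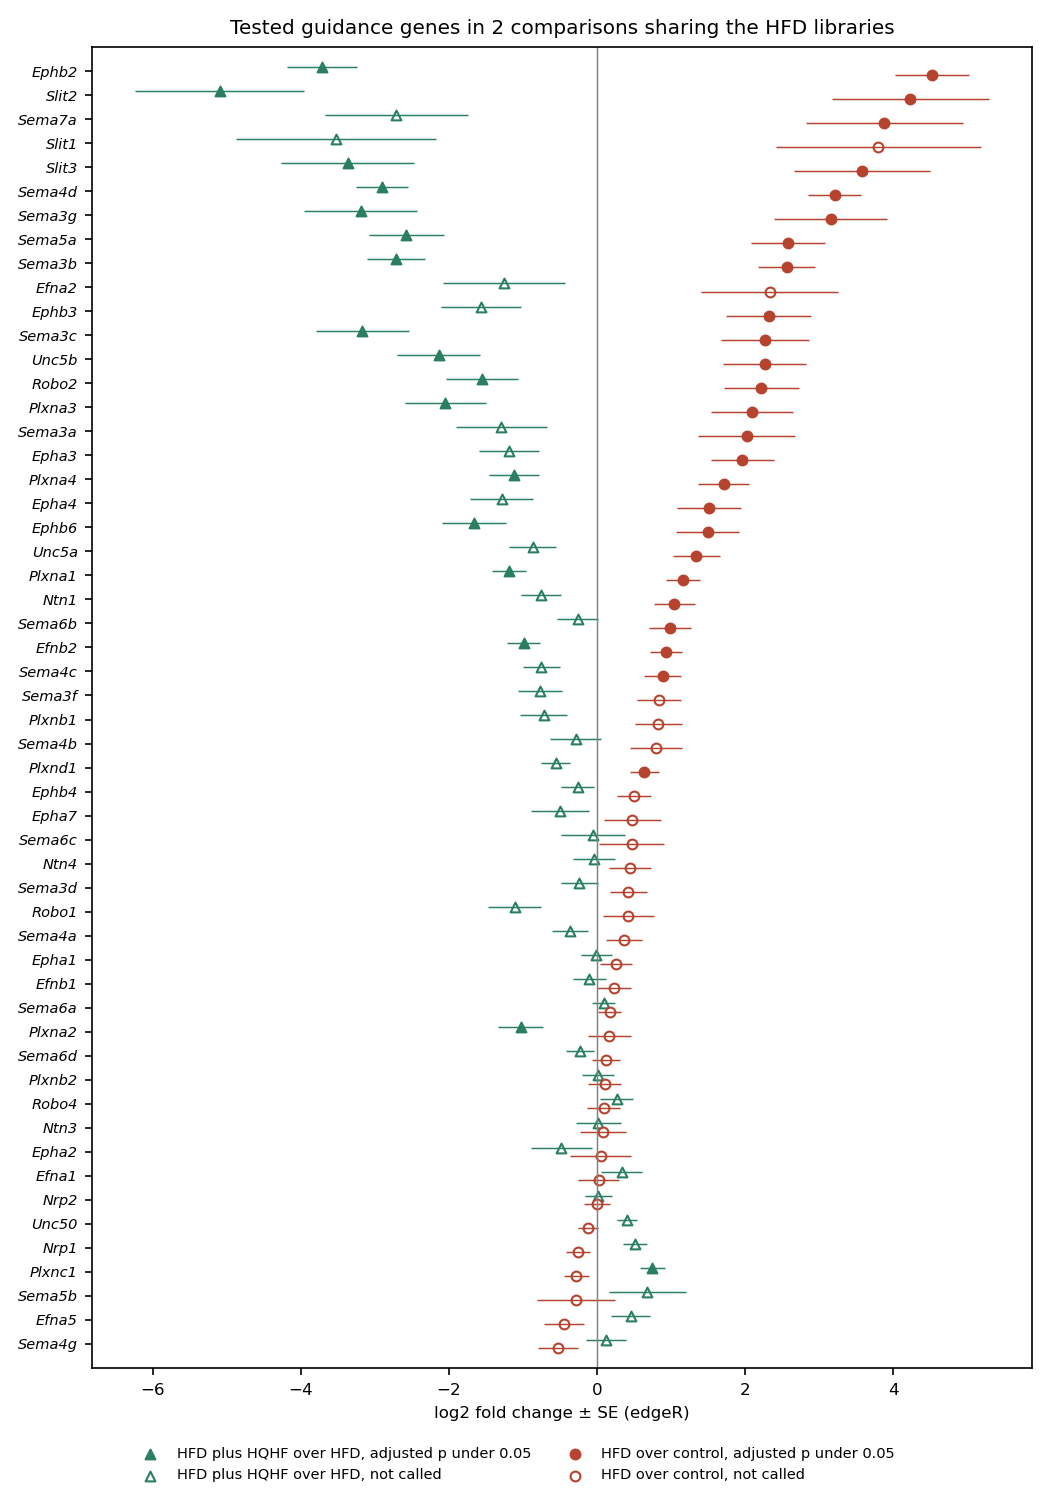
Log2 fold changes with SE (horizontal axis) of the 54 tested guidance genes (vertical axis), ordered by HFD over control. Green triangles are HFD plus HQHF over HFD and red circles HFD over control, filled where the adjusted p was under 0.05. All 25 filled circles lie above 0 and 16 of 17 filled triangles under 0, and both comparisons use the same HFD libraries.

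Eph receptors are tyrosine kinases that signal on contact with ephrins. Of 9 tested, 5 rose with HFD, and Ephb2 and Ephb6 fell with HQHF. Ephb2 (ENSMUSG00000028664), known from gut epithelium, T cells and nerve, had 0.287, 0.496 and 0.471 CPM in HFD plus HQHF livers, 3.65, 2.74, 8.37 and 7.39 CPM in HFD livers and 0.315, 0.179 and 0.222 CPM in control livers. The HFD livers were far above both other groups, with HFD 3 and HFD 4 highest. Its change of 4.52 ± 0.50 (adjusted p = 0.000932) with HFD was the highest of the 54, HQHF gave -3.72 ± 0.47 (adjusted p = 0.00232), and both calls held with each library left out. Ephb3 (ENSMUSG00000005958), a close relative, had 0.2297, 0.469 and 0.497 CPM in HFD plus HQHF livers, 1.55, 1.03, 0.529 and 1.63 CPM in HFD livers and 0.105, 0.231 and 0.381 CPM in control livers. HFD 3 lay just above the highest of the other groups. It rose by 2.32 ± 0.57 (adjusted p = 0.0165), lost without control 1 or control 3 (adjusted p up to 0.0659), and HQHF gave -1.56 ± 0.54 (adjusted p = 0.0634). Ephb6 (ENSMUSG00000029869), which lacks kinase activity, had 0.488, 0.469 and 0.654 CPM in HFD plus HQHF livers, 1.498, 1.64, 1.25 and 2.42 CPM in HFD livers and 0.263, 0.794 and 0.762 CPM in control livers. The HFD livers did not overlap with either group. It changed by 1.49 ± 0.43 (adjusted p = 0.0285) with HFD, lost without HFD 4 or any 1 control (up to 0.0878), and by -1.66 ± 0.43 (adjusted p = 0.0257) with HQHF, lost without any 1 HFD plus HQHF liver or HFD 4 (up to 0.098).

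Epha3 (ENSMUSG00000052504), known from mesenchymal and stromal cells, had 1.38, 1.23 and 1.91 CPM in HFD plus HQHF livers, 3.96, 2.04, 1.96 and 5.78 CPM in HFD livers and 1.13, 0.718 and 0.793 CPM in control livers. HFD 1 and HFD 4 were high, and HFD 3 came close to HFD plus HQHF 4. It rose by 1.96 ± 0.43 (adjusted p = 0.0104) with HFD, in each fit with a library left out, and HQHF gave -1.19 ± 0.41 (adjusted p = 0.0617). Epha4, which binds ephrins of both classes, averaged 0.581 ± 0.0866 CPM in HFD plus HQHF livers, 1.43 ± 0.534 CPM in HFD livers and 0.501 ± 0.178 CPM in control livers. It rose by 1.51 ± 0.43 (adjusted p = 0.0283), and with HQHF its -1.29 ± 0.43 (adjusted p = 0.0555) missed the threshold. Epha1, Epha2 and Epha7 overlapped in both comparisons. Ephb4 (ENSMUSG00000029710), the venous receptor of ephrin-B2, had 34.4, 26.7 and 37.00 CPM in HFD plus HQHF livers, 37.9, 44.1, 30.1 and 44.9 CPM in HFD livers and 18.04, 31.8 and 33.4 CPM in control livers. The groups overlapped, with 0.50 ± 0.23 (adjusted p = 0.123) for HFD against control and -0.26 ± 0.23 (adjusted p = 0.431) for HFD plus HQHF against HFD.

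Of 5 ephrins tested 1 rose with HFD and fell with HQHF. Efnb2 (ENSMUSG00000001300), the transmembrane ephrin of arterial endothelium and partner of Ephb4, had 3.302, 3.23 and 2.98 CPM in HFD plus HQHF livers, 6.56, 4.36, 6.21 and 8.097 CPM in HFD livers and 2.99, 3.59 and 3.33 CPM in control livers. The HFD livers lay above both other groups, which overlapped. It changed by 0.93 ± 0.22 (adjusted p = 0.014) with HFD, lost without control 1 (adjusted p = 0.0572), and -0.99 ± 0.22 (adjusted p = 0.0151) with HQHF, lost without HFD plus HQHF 1 or 2 (up to 0.0597). Efna1, the ligand of Epha2, gave 0.02 ± 0.28 (adjusted p = 0.969) with HFD, and Efnb1 gave 0.22 ± 0.23 (adjusted p = 0.489). Efna5 gave -0.45 ± 0.27 (adjusted p = 0.227). Efna2, at few reads, averaged 0.0984 ± 0.0534 CPM in HFD plus HQHF livers, 0.239 ± 0.0711 CPM in HFD livers and 0.0438 ± 0.0758 CPM in control livers and gave 2.33 ± 0.93 (adjusted p = 0.0835).

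Slits are large secreted proteins that repel axons and migrating cells through Robo receptors. Slit2 (ENSMUSG00000031558) had 0.115, 0.1304 and 0.0523 CPM in HFD plus HQHF livers, 1.17, 0.441, 2.27 and 10.02 CPM in HFD livers and 0.315, 0.103 and 0.127 CPM in control livers. HFD 4 was by far the highest, and the livers of the other groups all lay under every HFD liver. It changed by 4.23 ± 1.06 (adjusted p = 0.0189) with HFD and -5.10 ± 1.14 (adjusted p = 0.0167) with HQHF. Slit3 (ENSMUSG00000056427) had 0.316, 0.0522 and 0.366 CPM in HFD plus HQHF livers, 1.84, 1.05, 6.59 and 0.722 CPM in HFD livers and 0.341, 0.103 and 0.1904 CPM in control livers. Here HFD 3, with its adipocyte markers, was highest and HFD 4 lowest of the HFD livers, and no HFD liver overlapped with the other groups. It changed by 3.57 ± 0.92 (adjusted p = 0.0197) with HFD and -3.37 ± 0.90 (adjusted p = 0.0294) with HQHF. Slit1 (ENSMUSG00000025020) had 0.115, 0.1304 and 0.0523 CPM in HFD plus HQHF livers, 0.365, 0.0368, 3.999 and 0.292 CPM in HFD livers and 0.131, 0.0769 and 0.0317 CPM in control livers. HFD 3 was by far the highest, HFD 2 lay within the other groups, and 3.79 ± 1.38 (adjusted p = 0.0653) with HFD and -3.53 ± 1.35 (adjusted p = 0.0878) with HQHF missed the threshold.

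The Slit2 and Slit3 calls with HFD were each lost without control 1, control 3 or control 4 (adjusted p up to 0.0739 for Slit2 and 0.081 for Slit3), and the calls with HQHF without HFD plus HQHF 1, 2 or 4 (up to 0.0697 for Slit2 and 0.0996 for Slit3). Without HFD 4 the change of Slit2 with HFD was 2.81. The direction stayed in all of these fits.

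Of the Robo receptors, Robo2 (ENSMUSG00000052516), known in liver from stellate cells, had 4.31, 4.62 and 5.75 CPM in HFD plus HQHF livers, 13.1, 7.43, 6.29 and 30.6 CPM in HFD livers and 2.97, 3.05 and 3.24 CPM in control livers. HFD 4 was highest and HFD 3 lowest of the HFD livers, all above the rest. It changed by 2.22 ± 0.50 (adjusted p = 0.0131) with HFD, lost without control 1 or control 3 (adjusted p up to 0.0552), and by -1.55 ± 0.49 (adjusted p = 0.0488) with HQHF. Its HQHF call was lost without any 1 of 8 libraries, all but HFD 2 and HFD 3 (up to 0.15), and the change was -0.87 without HFD 4. Robo1 (ENSMUSG00000022883) had 9.59, 9.42 and 8.66 CPM in HFD plus HQHF livers, 12.3, 9.91, 27.4 and 30.2 CPM in HFD livers and 14.4, 13.7 and 16.8 CPM in control livers. The HFD plus HQHF livers were lowest without overlap, and HFD 3 and HFD 4 were high. It gave 0.42 ± 0.35 (adjusted p = 0.392) with HFD and -1.11 ± 0.35 (adjusted p = 0.0505) with HQHF, just over the threshold. DESeq2 called the HQHF change of Robo1 (-1.07, adjusted p = 0.0147). Robo4 (ENSMUSG00000032125), the endothelial member, had 24.4, 14.6 and 22.99 CPM in HFD plus HQHF livers, 17.3, 17.5, 15.2 and 18.8 CPM in HFD livers and 11.03, 18.4 and 19.1 CPM in control livers. The groups overlapped, with 0.09 ± 0.22 (adjusted p = 0.793) for HFD against control and 0.26 ± 0.22 (adjusted p = 0.416) for HFD plus HQHF against HFD.

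The miRNA encoded within both Slit loci was measured in the small RNA of the same livers. miR-218-5p had 11.8, 13.6 and 13.1 CPM in HFD plus HQHF livers, 101, 27.5, 339 and 347 CPM in HFD livers and 83.4, 8.74 and 15.8 CPM in control livers. HFD 3 and HFD 4, the highest in Slit3 and Slit2, were also the highest here, and control 1 lay within the HFD range. With HFD it gave 2.50 ± 1.00 (adjusted p = 0.104 over 406 miRNAs, edgeR), which missed the threshold, where 16.3% of miRNAs tested were called. It fell by 3.99 ± 1.09 with HQHF (adjusted p = 0.0372), where 20% were called. That call was lost without any 1 of HFD plus HQHF 1, 2 and 4, HFD 1, HFD 4 and control 4 (0.054 to 0.128 as adjusted p). Reads of the 3p arms, which would tell the loci apart, were too few: miR-218-2-3p had 10 reads in HFD 3 and 0 in the other 9 libraries, and miR-218-1-3p had 0 in all 10. Small RNA libraries held 8139111 to 12813806 reads.

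**Figure D5:**
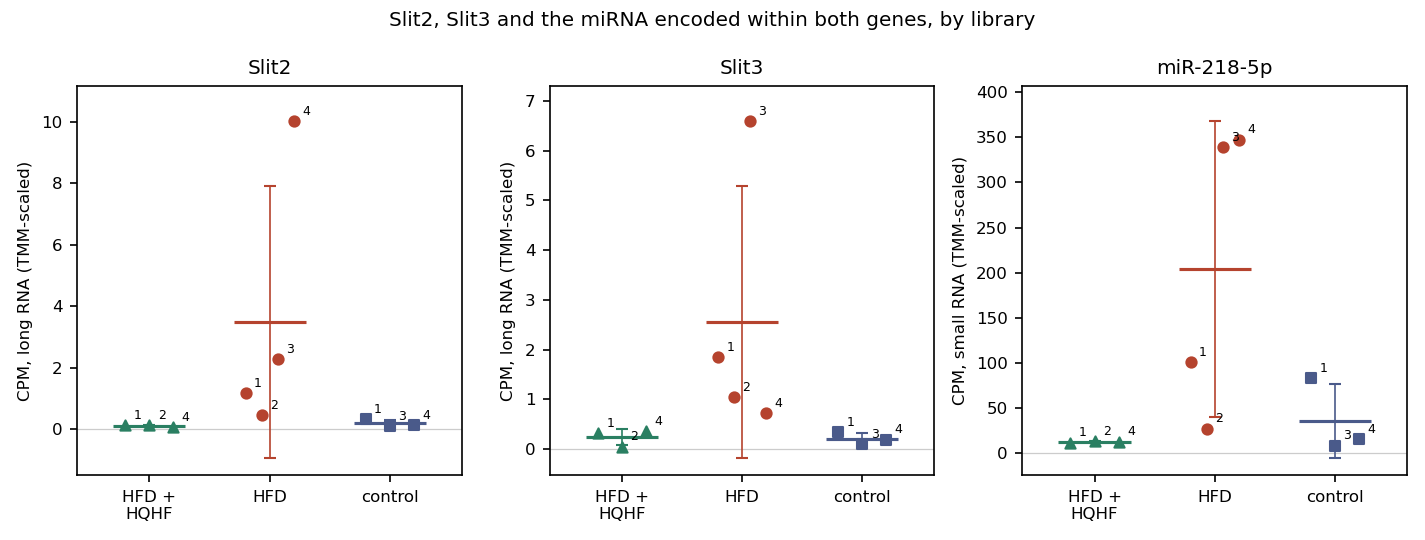
CPM (vertical axes, linear) of Slit2 and Slit3 in long RNA and of miR-218-5p in small RNA libraries of the same HFD plus HQHF, HFD and control livers. Points are libraries labelled by replicate number, bars are means and whiskers SD. HFD 4 is highest for Slit2 at 10.02 CPM, HFD 3 for Slit3 at 6.59 CPM, and they have 347 and 339 CPM of miR-218-5p.

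Netrins are laminin-like secreted cues. Ntn1 (ENSMUSG00000020902), the best known netrin, had 14.6, 13.5 and 16.03 CPM in HFD plus HQHF livers, 22.4, 24.6, 15.6 and 37.1 CPM in HFD livers and 8.69, 14.8 and 12.9 CPM in control livers. The HFD livers were above the control livers, while HFD 3 lay within the HFD plus HQHF range. It rose by 1.04 ± 0.27 (adjusted p = 0.0213) with HFD, lost without control 1 or control 4 (adjusted p up to 0.0828), and HQHF gave -0.76 ± 0.27 (adjusted p = 0.0694). Ntn3 overlapped in all groups, with 0.08 ± 0.31 (adjusted p = 0.87) for HFD against control, and so did Ntn4, a basement membrane protein, with 0.44 ± 0.28 (adjusted p = 0.264).

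Unc5 receptors bind netrins and can trigger cell death without them. Both tested rose with HFD. Unc5b (ENSMUSG00000020099), a receptor of vessels and macrophages, had 2.99, 2.61 and 5.07 CPM in HFD plus HQHF livers, 11.1, 9.69, 6.74 and 35.2 CPM in HFD livers and 2.42, 3.97 and 3.43 CPM in control livers. HFD 4 stood far above the other HFD livers, which were still above the rest. It changed by 2.26 ± 0.56 (adjusted p = 0.0187) with HFD, lost without any 1 control (adjusted p up to 0.0775), and by -2.14 ± 0.56 (adjusted p = 0.0286) with HQHF, lost without HFD plus HQHF 1 or 2 (up to 0.108). Without HFD 4 the change was 1.49 with HFD and -1.37 with HQHF. Unc5a (ENSMUSG00000025876) had 1.09, 1.25 and 1.49 CPM in HFD plus HQHF livers, 2.17, 1.71, 2.49 and 2.99 CPM in HFD livers and 0.709, 0.769 and 1.301 CPM in control livers. The HFD livers lay above both other groups. It rose by 1.34 ± 0.32 (adjusted p = 0.0152) with HFD, lost without control 1 or control 3 (up to 0.0707), and HQHF gave -0.87 ± 0.32 (adjusted p = 0.0722).

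HFD 4 held the highest HFD value for 21 of the 25 genes that rose, and HFD 3 for the other 4. Over all genes that rose, HFD 4 was highest in 52.4%, HFD 1 in 21%, HFD 3 in 19.2% and HFD 2 in 7.44%. Without both HFD 3 and HFD 4, 19 of 53 guidance genes tested were called with HFD (35.8%, against 21.9% of all genes). Of these, 18 were higher, and the median over the 53 was 0.69.

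The 13 genes that did not pass the filter had few reads throughout. Unc5c, a netrin receptor, had the most, 109 reads in HFD 3, against 0 to 6 reads in the other 9 livers. Epha5 had 31 reads and Epha10 14 reads in HFD 3, with at most 1 read in any other liver. Efna4 had 46 reads in HFD 4 and at most 7 elsewhere, and Efnb3 had 25 reads in HFD 2 and 0 to 16 elsewhere. Plxnb3, a class B plexin known as a receptor of Sema5a, had 5, 6 and 5 reads in HFD plus HQHF livers, 10, 9, 17 and 10 reads in HFD livers and 1, 4 and 0 reads in control livers. Sema4f had 0 to 1 reads in HFD plus HQHF livers, 6 to 12 in HFD livers and 1 to 2 in control livers, and Ephb1 had 0 to 2 reads in HFD plus HQHF livers, 1 to 19 in HFD livers and 0 to 1 in control livers. Sema3e, Efna3, Robo3, Unc5d and Unc5cl had at most 14 reads in any of the 10 livers. Fitted without the filter, none of the 13 was called in any of the 3 comparisons by edgeR.

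Between HFD plus HQHF and control no guidance gene was called, and by edgeR none of the 13832 genes was (0%). At an unadjusted p under 0.05 there were 3 of 54 guidance genes and 1008 genes in all (7.29%). DESeq2 called 0 guidance genes, and over all genes 46 higher and 26 lower. The groups did not overlap for 6 guidance genes in the higher direction (11.1%, against 8.4% of all genes) and 3 in the lower (5.56%, against 6.72%). The 5 with the smallest p were Plxna2 at -0.87 ± 0.32 (adjusted p = 0.643), Plxnc1 at 0.47 ± 0.18 (adjusted p = 0.643), Sema6b at 0.73 ± 0.30 (adjusted p = 0.666), Unc50 at 0.28 ± 0.14 (adjusted p = 0.704) and Robo1 at -0.70 ± 0.37 (adjusted p = 0.717). Unc50, named for a worm gene and no guidance receptor, had 17.3, 19.7 and 16.5 CPM in HFD plus HQHF livers, 14.9, 13.4, 13.96 and 11.6 CPM in HFD livers and 15.9, 14.2 and 13.8 CPM in control livers. HFD plus HQHF livers were highest without overlap. Sema4d gave 0.30 ± 0.35 (adjusted p = 0.878) and Ephb2 0.80 ± 0.51 (adjusted p = 0.757). An adjusted p that missed the threshold does not show that these livers were alike.

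Calls in lists of genes around the receptors are set against all genes tested, of which 16.3% rose and 9.89% fell with HFD, and 7.85% rose and 11.1% fell with HQHF. Of 10 tested partners of semaphorins and plexins, 3 rose and 2 fell with HFD, and 2 rose and 2 fell with HQHF. Cd72, the receptor of Sema4d on B cells, averaged 2.90 ± 0.402 CPM in HFD plus HQHF livers, 5.24 ± 1.73 CPM in HFD livers and 1.97 ± 0.563 CPM in control livers (SD), and rose by 1.41 ± 0.30 with HFD (edgeR, adjusted p = 0.01). Met, the HGF receptor that can join plexin-B1, averaged 107 ± 8.60 CPM in HFD plus HQHF livers, 73.6 ± 5.36 CPM in HFD livers and 118 ± 6.20 CPM in control livers. It changed by -0.69 ± 0.13 with HFD (adjusted p = 0.00583) and 0.54 ± 0.13 with HQHF (adjusted p = 0.0176). Timd2, a receptor of Sema4a, averaged 68.4 ± 8.33 CPM in HFD plus HQHF livers, 39.0 ± 10.4 CPM in HFD livers and 70.6 ± 5.92 CPM in control livers, with changes of -0.86 ± 0.20 with HFD (adjusted p = 0.0129) and 0.81 ± 0.20 with HQHF (adjusted p = 0.0204).

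Of 9 partners of netrins, Slits and RGM proteins, 4 rose with HFD and 4 fell with HQHF. Flrt3, a membrane protein that binds Unc5 receptors and Robo1, averaged 0.0731 ± 0.0362 CPM in HFD plus HQHF livers, 1.60 ± 1.31 CPM in HFD livers and 0.0962 ± 0.0558 CPM in control livers, with 4.05 ± 0.85 with HFD (adjusted p = 0.00913) and -4.41 ± 0.87 with HQHF (adjusted p = 0.0106). Neo1, a netrin and RGM receptor, averaged 19.9 ± 2.99 CPM in HFD plus HQHF livers, 28.5 ± 2.50 CPM in HFD livers and 27.4 ± 1.13 CPM in control livers, and fell by 0.52 ± 0.13 with HQHF (adjusted p = 0.025).

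Of 12 cytoskeletal and adaptor effectors 7 rose and 1 fell with HFD, and 5 fell with HQHF. Dpysl2, a collapsin response mediator of Sema3a signalling, averaged 22.8 CPM in HFD plus HQHF livers, 38.6 CPM in HFD livers and 19.7 CPM in control livers. It changed by 0.97 ± 0.18 with HFD (adjusted p = 0.00578) and -0.76 ± 0.18 with HQHF (adjusted p = 0.0173). Mical1, a plexin-bound oxidase of actin, averaged 1.84 CPM in HFD plus HQHF livers, 5.24 CPM in HFD livers and 1.19 CPM in control livers, with 2.14 ± 0.41 with HFD (adjusted p = 0.0065) and -1.51 ± 0.39 with HQHF (adjusted p = 0.0252). None of the 3 sheddases, Adam10, Adam17 and Mmp14, was called by edgeR with HFD (1 higher at an unadjusted p under 0.05, 0 by DESeq2) or with HQHF (2 lower unadjusted, 1 by DESeq2). Between HFD plus HQHF and control, 0 genes of these 4 lists were called by edgeR or DESeq2. At an unadjusted p under 0.05, 1 partner of netrins, Slits and RGM proteins was higher and 1 lower, and 1 effector was higher.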

How the data were processed

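Long RNA and small RNA of 12 livers were sequenced from TRIzol-extracted total RNA. Long RNA libraries came from a stranded kit for total RNA with removal of ribosomal RNA, per the labels' protocols. The authors deposited counts, whole numbers without normalization, in a table of genes and a table of mature miRNAs. The submitters' processing notes name HISAT2, RSEM and GRCm39. How reads were counted, with or without strand, is not given in the sources used here, so reads of overlapping or antisense genes may not be told apart. A further 116 entries had no gene name.

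From these counts, differences were fitted on 10 libraries with edgeR 4.0.16 under R 4.3.3 (filterByExpr by group, TMM, estimateDisp, robust glmQLFit, and glmQLFTest on the means of 3 groups). The procedure was first tested on simulated data. Calls rest on Benjamini-Hochberg adjustment over all 13832 genes or 406 miRNAs with a threshold of 0.05, and the SE is the size of the log2 fold change over the square root of F. Replicates are separate mice. DESeq2 1.42.0 served as a second tool, and figures and sequences used Python 3.11.15 with numpy 2.4.6, pandas 2.3.3 and matplotlib 3.10.9. Alternatives were all 12 libraries, 2 sets of 8 libraries (1 chosen after seeing the data), DESeq2, RLE scaling, library totals, no filter, a filter of 1 CPM in 3 libraries, fits of 2 groups alone, a block for the replicate number, and each library left out in turn.

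The members, pathway lists and marker lists were chosen with earlier results of these data known, so no count or direction here is independent support for them. Values in every library are given for Sema4d, for called members averaging at least 1 CPM in the higher group (at most 20 per comparison, by p), for the 5 members with the smallest p where none was called, and for textbook binding partners. Other genes with values were named after these were seen. Kdr is in both the endothelial list and the semaphorin partner list. A further pathway list is not reported here. Gene lengths were not used, so levels are not compared between genes. All 67 gene IDs had the same symbol in the gene name table used. Sequences are from RefSeq (GRCm38.p6), matched by symbol or miRNA name, and no coordinates were converted between builds.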

Additional observations from a re-analysis of the deposited data

Results flagged for a closer look

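In 4 of 34 groups of 4 HFD libraries examined, 1 library stood far from the other 3. The cutoff flags about 1 in 20 where values are normally distributed and groups are independent. Here the values were CPM on a linear scale, all 34 groups came from the same 4 livers, and most genes were named for their calls. The 4 of 34 thus cannot be set against 1 in 20. Unc5b had 35.2 CPM in HFD 4, against 6.74 to 11.1 CPM in the other HFD livers. Plxna3 had 3.99 CPM in HFD 4, against 1.20 to 1.39 CPM in the others. Sema7a had 4.19 CPM in HFD 3, against 0.331 to 0.928 CPM in the other HFD livers. Plxnb3 had 0.333 CPM in HFD 3, against 0.165 to 0.183 CPM in the other HFD livers. HFD 4 also held the most cholangiocyte markers (404 CPM) and HFD 3 the most adipocyte markers (227 CPM), and their part in these values was not tested.

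The 2 libraries left out of the comparisons hold little albumin RNA. Listed here are guidance genes with at least 30 CPM in such a library and more than 10 times the level of the highest other control. Genes under 30 CPM were not searched. Values here are CPM of library total. HFD plus HQHF 3 had 201 CPM of Plxna1, 42.9 CPM of Sema3g, 37.9 CPM of Sema7a and 42.2 CPM of Slit3. Control 2 had 149.9 CPM of Sema3c, 78.8 CPM of Sema3g, 108 CPM of Sema5a and 135 CPM of Slit3. Over the other 10 libraries the highest values were 44.6 CPM for Plxna1, 8.57 CPM for Sema3c, 3.81 CPM for Sema3g, 18.7 CPM for Sema5a, 5.91 CPM for Sema7a and 9.28 CPM for Slit3. Each of the left-out values comes from 1 library, and the 2 libraries belong to different groups. Sema3g and Slit3 met both limits in both libraries, and the other genes listed met both limits in 1 of them. Under 30 CPM, Sema7a in control 2 (24.7 CPM) was still more than 10 times the highest other control. So were Sema3c (8.94 CPM) and Sema5a (16.7 CPM) in HFD plus HQHF 3.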

How the results depend on the processing

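Over other settings, guidance genes called ran from 18 to 28 for HFD against control (32.7 to 51.9%, against 16.9 to 34.2% of all genes). For HFD plus HQHF against HFD they ran from 14 to 25 (22.4 to 45.5%, against 11.8 to 23.6%). Exceptions were DESeq2 for the second (28, or 51.9%, against 28.1%) and library totals (45 and 39, or 83.3 and 72.2%, against 52 and 48%). All 12 libraries gave 1 and 0 (1.82 and 0%, against 0.0503 and 0.00718%). With each library left out in turn the counts ran from 8 to 26 and from 3 to 23. Of all genes, 11 to 28.5% and 4.44 to 24.2% were called in those fits. HFD plus HQHF against control gave 0 in all. Of 39 calls of named genes, 1 held in each of 20 settings, Sema4d for HFD against control. The causes were not tested.

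With all 12 libraries HFD against control gave -1.23 for Sema5a, -2.97 for Sema3g, -3.03 for Slit3, -2.83 for Sema3c and -1.33 for Sema7a. HFD plus HQHF against HFD then gave 0.58 for Plxna1, 0.0935 for Efnb2, 2.21 for Sema3g and 1.49 for Slit3. Under library totals HFD against control gave 0.48 for Unc50 and 0.59 for Nrp2, and HFD plus HQHF against HFD gave -0.52 for Plxnb2.

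For miR-218-5p all 12 libraries gave 1.29 for HFD against control and -2.04 for HFD plus HQHF against HFD, which lost the call. With each library left out the changes ran from 2.04 to 4.14 (the highest without control 1, at an adjusted p of 0.05), from -4.35 to -3.64, and from -1.94 to 0.126 for HFD plus HQHF against control. Deviations of same-numbered libraries from their group means correlated from -0.0936 to 0.152, over 0.1 in 1 of 8 pairs. Differently numbered pairs were not taken as a reference, so this does not settle whether the replicate numbers pair the mice. With the replicate block 25, 16 and 0 guidance genes were called (46.3, 29.6 and 0%, against 20.5, 12.4 and 0% of all genes). In that fit miR-218-5p gave -3.60 for HFD plus HQHF against HFD (edgeR, adjusted p = 0.138) and lost its call. The filter left out 13 members with few reads, and without it none of them was called.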
